A study of Mus musculus with 21 samples.

Results

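The genes described here are 6 Eph receptors (Epha2, Epha4, Epha7, Ephb2, Ephb3 and Ephb4) and 4 ephrins (Efna1, Efna5, Efnb1 and Efnb2), chosen by name as 10 of the 34478 genes in a table of normalized RNA-seq counts. Each was found in the table by its symbol and all 10 passed the filter on low values. The samples came from 6 primary lines of murine pancreatic ductal adenocarcinoma (PDAC), numbered #3, #4, #6, #7, #9 and #10. Every sample carried the alleles Trp53 loxP/loxP and Ptf1a wt/Cre, in which Cre under the pancreatic Ptf1a locus deletes Trp53, so the parental group shared these alleles with all others. In all, 4 states were compared, with each line sequenced once per state so that the lines are the replicates. Parental cells (6 samples) had never met the drug, and resistant cells (6) had been adapted to trametinib, an inhibitor of the kinase MEK, and were kept in 100 times the dose that inhibited their growth by 50%. P5 (3 samples, lines #3, #7 and #9) and P12 (6) were resistant cells grown on without drug for 5 and 12 passages. For P5 of lines #7 and #9 the sample descriptions give 12 drug-free passages while the titles give P5, and the titles were followed.

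Eph receptors form the largest family of receptor tyrosine kinases, and their ligands, the ephrins, are themselves held in the membrane of a neighbouring cell. Ephrin-A ligands are tied to the membrane by a lipid anchor and bind mainly EphA receptors, whereas ephrin-B ligands span the membrane and bind mainly EphB receptors, with EphA4 accepting both classes. Contact signals into both cells through small GTPases, which governs repulsion, adhesion and the sorting of cells at tissue boundaries. Eph receptors and ephrins help to shape the branching pancreas, and EPHA2 is abundant in many carcinomas, those of the pancreas included.

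The promoters were searched for motifs of transcription factors because the drug acts on a pathway that ends in such factors. Those of the 10 genes that held a match are shown here, with that of Ephb6, a called gene of the same family. RefSeq (GRCm38.p6) gave 12 promoters for the 10 genes, each 300 bases long. Both strands were searched for TGANTCA (bound by AP-1), CCGGAAG (ETS factors) and CACCTG (the E-box of the ZEB and SNAI repressors). The motif TGACGTCA, the element bound by CREB and ATF factors, was added after the promoters had been seen. No searched motif overlapped another. Of each promoter shown, the 250 bases before the start are printed 5′ to 3′ on the gene's strand, with the match in capitals.
Epha2, chr4:141300971-141301220, plus strand: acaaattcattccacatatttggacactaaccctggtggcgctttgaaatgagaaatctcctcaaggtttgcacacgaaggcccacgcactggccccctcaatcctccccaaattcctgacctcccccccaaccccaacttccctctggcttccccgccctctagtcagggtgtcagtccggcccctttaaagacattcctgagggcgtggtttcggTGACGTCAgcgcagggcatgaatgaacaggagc
Ephb2, chr4:136836013-136836262, minus strand: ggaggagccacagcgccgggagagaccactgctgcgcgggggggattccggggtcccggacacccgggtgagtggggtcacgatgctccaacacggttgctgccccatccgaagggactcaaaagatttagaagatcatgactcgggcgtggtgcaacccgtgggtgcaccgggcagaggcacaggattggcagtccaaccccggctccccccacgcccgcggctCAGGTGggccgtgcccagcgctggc
Efnb2, chr8:8661243-8661492, minus strand: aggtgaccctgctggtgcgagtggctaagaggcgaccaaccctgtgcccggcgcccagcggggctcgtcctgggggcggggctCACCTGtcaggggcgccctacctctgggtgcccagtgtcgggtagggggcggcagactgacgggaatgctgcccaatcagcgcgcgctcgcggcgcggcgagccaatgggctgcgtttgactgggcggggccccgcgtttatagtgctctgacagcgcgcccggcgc
Ephb6, chr6:41605261-41605510, plus strand: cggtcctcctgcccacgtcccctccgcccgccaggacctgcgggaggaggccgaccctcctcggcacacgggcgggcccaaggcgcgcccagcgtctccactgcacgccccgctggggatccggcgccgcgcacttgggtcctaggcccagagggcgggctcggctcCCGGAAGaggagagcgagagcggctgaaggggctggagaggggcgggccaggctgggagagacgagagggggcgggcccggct

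TGACGTCA lay at position -33 from the start of Epha2 and in 1 of the 12 promoters, and it was present in 1.79% of all 32851 promoters of this length. CACCTG was present in 2 of 12, at -167 in Efnb2 and, as its reverse complement CAGGTG, at -25 in Ephb2, against 20.2% of all promoters. TGANTCA and CCGGAAG were in 0 of 12, against 7.81% and 8.86% of all promoters, and say only that these letters are not in these windows. CCGGAAG was found at -83 in Ephb6, a receptor outside the 10 genes to which the results return. The promoter of Efna2, the other called gene of the family, held no searched motif. Also outside the 10 genes, CACCTG was found at -71 in Epha1, which was not called. The median GC content of the 12 promoters was 65.5%, compared with 52.7% for all promoters. Each match describes letters and not a bound site.

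The depth of a sample, read off the step between low values, was 24.1 to 42.7 M reads (M for mega; median 32.5). A value of 3 reads corresponded to 2.31 to 4.07 normalized counts, which was taken as the floor, and values below it rest on fewer reads. The floor covers counting error only. Ductal epithelial markers were present in the parental cells, with a summed normalized count of 249206 (median, 18366 to 284718), except Epcam, which was listed at 0 in all 6 parental samples. The lowest parental sum belonged to line #9, in which the keratin Krt8 was at 546 normalized counts. This sum had a median of 62702 in resistant and 52779 in P12 cells. Against parental cells, 0 of 7 tested ductal markers had a log2 fold change above 0 in resistant cells and 1 of 7 in P12. Sox9 went against the sum, with P12 above parental cells in every line but #6 (1406 against 1658). Most of the fibroblast markers are matrix genes that mesenchymal tumour cells also express. Their sum had a median of 498 (122 to 24854) in parental, 169950 (1919 to 577895) in resistant and 36365 (252 to 153867) in P12 cells, with overlapping ranges. Summed leukocyte markers lay between 136 and 423 normalized counts in all samples. The endothelial sum had a median of 82.0 in parental, 404 in resistant (up to 2757) and 121 in P12 cells, and the neural and Schwann sum 1586, 4544 and 1901. These sums follow single genes, with Tek at 2512 in resistant line #6 and Mbp at 6580 in resistant #10. Between resistant and parental cells 2 of 5 tested endothelial markers had a log2 fold change above 0 (median -0.15). Of the neural and Schwann markers 2 of 4 did (median 0.15). The acinar sum had a median of 128, 79.9 and 176, and the mesenchymal sum 143624, 198799 and 206219. The part of these lists in the results was not tested. In bulk RNA, fewer cells of a type and less RNA per cell cannot be told apart.

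Between resistant and parental cells, limma called 0 of the 10 genes at the thresholds used (Benjamini-Hochberg adjusted p under 0.01 with an absolute log2 fold change over 1), whereas 5.3% of the 19300 tested genes were called. At an unadjusted p below 0.05 there were 2 of 10, Epha2 and Ephb4, both lower in resistant cells, against 5642 of the 19300 tested genes. Over the 10 genes the log2 fold change had a median of -0.65 with 3 of 10 above 0, against a median of -0.00 over all tested genes. With the cell line as a block, which uses the pairing of states within a line, 1 of 10 was called (Epha2, lower), against 10.5% of all genes. At an adjusted p below 0.05 it was again 1 of 10 (Epha2), against 11.3% of all genes. None of the 10 genes differed in the same direction in all 6 lines, which 8.99% of the tested genes did upward and 9.49% downward.

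**Figure D1:**
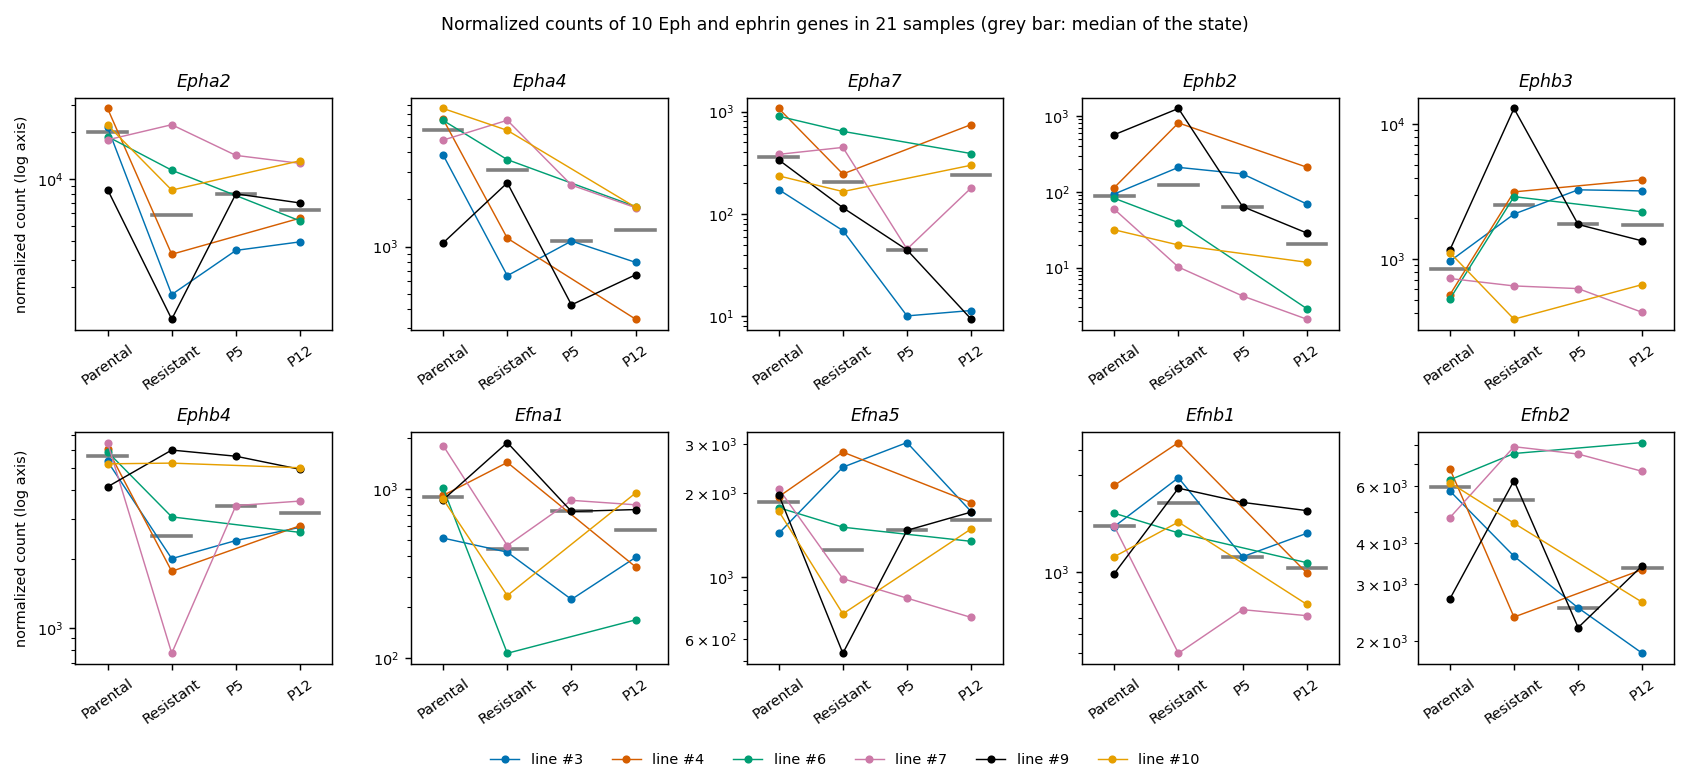
Normalized counts (log axis) of the 10 Eph and ephrin genes in parental, resistant, P5 and P12 samples, 1 point per sample, with lines joining samples of the same cell line and grey bars at the median of the state. Epha2 lies between 8543 and 28430 in parental cells and spreads from 1250 to 22345 in resistant cells, while the courses of Ephb3, Efna1 and Efnb1 differ in direction between lines.

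Epha2 (chr4:141301240-141329384, plus strand; here and below GENCODE M21, build GRCm38) encodes the EphA receptor best known from carcinomas. In parental cells its normalized count was 21485 in line #3, 28430 in #4, 18748 in #6, 17853 in #7, 8543 in #9 and 22234 in #10. In resistant cells it was 1801 in line #3, 3270 in #4, 11380 in #6, 22345 in #7, 1250 in #9 and 8471 in #10. Resistant cells were thus lower in 5 of 6 lines, by up to 11.9 times in line #3, and line #7 was slightly higher. The ranges overlapped, since resistant #7 and #6 exceeded parental #9. This gave a log2 fold change of -1.88 (SE 0.58, 95% interval -3.09 to -0.66, n = 6 and 6), with a limma adjusted p of 0.0337 that missed the threshold of 0.01. With the cell line as a block the limma adjusted p was 0.00831, below the threshold. Leaving out single lines gave log2 fold changes between -2.32 and -1.54. The ductal keratin and fibroblast marker sums moved between the same states, and their part in the difference was not tested.

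Without the drug Epha2 was below its parental level in each line sampled. In P5 it was at 3465 in line #3, 14176 in #7 and 8015 in #9. In P12 it was at 3933 in line #3, 5589 in #4, 5367 in #6, 12595 in #7, 7002 in #9 and 13092 in #10. P12 lay below the parental sample in 6 of 6 lines, by 0.29 to 2.45 on the log2 scale, and above the resistant sample in 4 of 6. Against parental cells P12 had a log2 fold change of -1.36 (SE 0.58, limma adjusted p = 0.269; with the line as a block 0.092), and the value against resistant cells was 0.52 (SE 0.58, limma adjusted p = 0.692). Neither passed the threshold, and lines #6 and #7 were lower in P12 than on the drug.

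Epha4 (chr1:77367185-77515088, minus strand), the receptor that binds ephrins of both classes, was at 3846 normalized counts in parental line #3, 6508 in #4, 6398 in #6, 4792 in #7, 1055 in #9 and 7631 in #10. Resistant samples held 651 in line #3, 1130 in #4, 3593 in #6, 6415 in #7, 2553 in #9 and 5530 in #10. The resistant sample was lower than the parental in 4 of 6 lines and higher in #7 and #9. Between these states the log2 fold change was -0.78 (SE 0.62, limma adjusted p = 0.439). In P12 the counts were 792 in line #3, 343 in #4, 1800 in #6, 1771 in #7, 660 in #9 and 1782 in #10. Every line was lower in P12 than before treatment, and the ranges overlapped only through parental #9. For P12 against parental cells limma gave a log2 fold change of -2.09 (SE 0.62, 95% interval -3.39 to -0.80, limma adjusted p = 0.12; with the line as a block 0.0183). P12 was also below the resistant sample in 5 of 6 lines, with a log2 fold change of -1.31 (SE 0.62, limma adjusted p = 0.246). In P5 Epha4 was at 1084 in line #3, 2471 in #7 and 424 in #9, lower than parental in 3 of 3 lines. These were 0.282, 0.516 and 0.402 times the parental count of the same line. Between 3 P5 and 6 parental samples, without pairing, the log2 fold change was -2.04 (SE 0.76, limma adjusted p = 0.385).

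Between P12 and parental cells, 0 of the 10 genes were called, against 0.114% of all tested genes, and 2 of 10 (Epha2 and Epha4) had an unadjusted p below 0.05 in limma, against 2953 of 19300. These were also the 2 of 10 that were lower in P12 in all 6 lines, which held for 6.96% of the tested genes. The median log2 fold change of the 10 genes was -0.79 with 1 of 10 above 0, compared with 0.03 over all genes. For both Epha2 and Epha4 the level without drug was therefore below the untreated level in every line, although neither difference passed the adjusted threshold.

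Epha7 (chr4:28813131-28967499, plus strand), an EphA receptor known from the patterning of the nervous system, was a low-level gene. Its normalized count ran from 173 to 1071 (median 360) in parental and from 68.9 to 641 (median 206) in resistant cells, lower in 5 of 6 lines with a log2 fold change of -0.96 (SE 0.94, limma adjusted p = 0.545). In P5 it was at 10.1 in line #3, 45.4 in #7 and 44.6 in #9. All 3 values lay below every parental and every resistant sample. Among the 10 genes this was the only one whose P5 values did not overlap the other state, which downward held for 2.32% of the tested genes against parental and 2.35% against resistant cells. The log2 fold change of P5 was -3.86 against parental (SE 1.15, limma adjusted p = 0.274) and -2.90 against resistant cells (SE 1.15, limma adjusted p = 0.222), on the scale with 1 added to each count. In P12 the lines diverged, with 11.4 in #3 and 9.41 in #9 and 180 to 746 in the remaining lines. The 2 lowest P12 lines were also P5 lines. P12 was higher than P5 by 1.97 on the log2 scale (SE 1.15, limma adjusted p = 1) when all lines were used. That value sets 6 P12 lines against 3 P5 lines without pairing. Within the shared lines, the P12 count was 1.13 times that of P5 in #3, 3.96 times in #7 and 0.211 times in #9.

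Ephb4 (chr5:137350109-137378669, plus strand), the partner of ephrin-B2 in the separation of arteries and veins, was the most even receptor among parental cells, with normalized counts of 4141 to 6469 (median 5624). On the drug it was at 2007 in line #3, 1766 in #4, 3058 in #6, 773 in #7, 5998 in #9 and 5259 in #10. It was lower in 4 of 6 lines, while #9 and #10 stayed within the parental range. Ephb4 had a log2 fold change of -1.11 (SE 0.38, 95% interval -1.89 to -0.32, limma adjusted p = 0.0508; with the line as a block 0.0277). Line #7 was thus the lowest resistant line for Ephb4 and the highest for Epha2. In P12 the counts were 2615 to 5019 (median 3192), and the log2 fold changes against resistant and parental cells were 0.46 (SE 0.38, limma adjusted p = 0.557) and -0.65 (SE 0.38, limma adjusted p = 0.420).

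Ephb3 (chr16:21204755-21223305, plus strand) and Ephb2 (chr4:136647539-136835988, minus strand) sort cells along the intestinal crypt. Ephb3 had 506 to 1167 normalized counts in parental cells (median 841). Resistant samples held 2156 in line #3, 3147 in #4, 2901 in #6, 633 in #7, 13054 in #9 and 359 in #10. It was thus higher in 4 lines and lower in #7 and #10, the reverse of Epha2 in every line but #10. For Ephb3 the log2 fold change was 1.31 (SE 0.72, 95% interval -0.19 to 2.81, limma adjusted p = 0.235). In P12 it ran from 403 to 3867 (median 1803), with log2 fold changes of -0.43 (SE 0.72, limma adjusted p = 0.808) against resistant and 0.89 (SE 0.72, limma adjusted p = 0.579) against parental cells. Without line #9, which was 3.26 lower in P12 than on the drug on the log2 scale, the value against resistant cells was 0.14.

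Ephb2 was at 31.5 to 564 normalized counts in parental cells (median 87.6). On the drug it was at 209 in line #3, 806 in #4, 39.2 in #6, 10.2 in #7, 1250 in #9 and 19.9 in #10. Lines #3, #4 and #9 were higher and #6, #7 and #10 lower than before treatment, and the log2 fold change was 0.17 (SE 1.26, limma adjusted p = 0.95). In P12 it was at 69 in line #3, 211 in #4, 2.88 in #6, 2.09 in #7, 28.6 in #9 and 11.8 in #10. Ephb2 was the 1 gene of 10 that was lower in P12 than in resistant cells in 6 of 6 lines, which 8.2% of the tested genes were. Its log2 fold change was -2.48 (SE 1.26, limma adjusted p = 0.292; with the line as a block 0.0373) and was -1.99 with a pseudocount of 8, since the value of P12 #7 lay below that of 3 reads. Against parental cells it was -2.31 (SE 1.26, limma adjusted p = 0.394), lower in 5 of 6 lines.

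Between P12 and resistant cells, 0 of the 10 genes were called, against 2.13% of all tested genes, and 1 of 10 (Epha4) had an unadjusted p below 0.05 in limma, against 3821 of 19300. The median log2 fold change of the 10 genes was -0.41, compared with 0.02 over all genes.

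**Figure D2:**
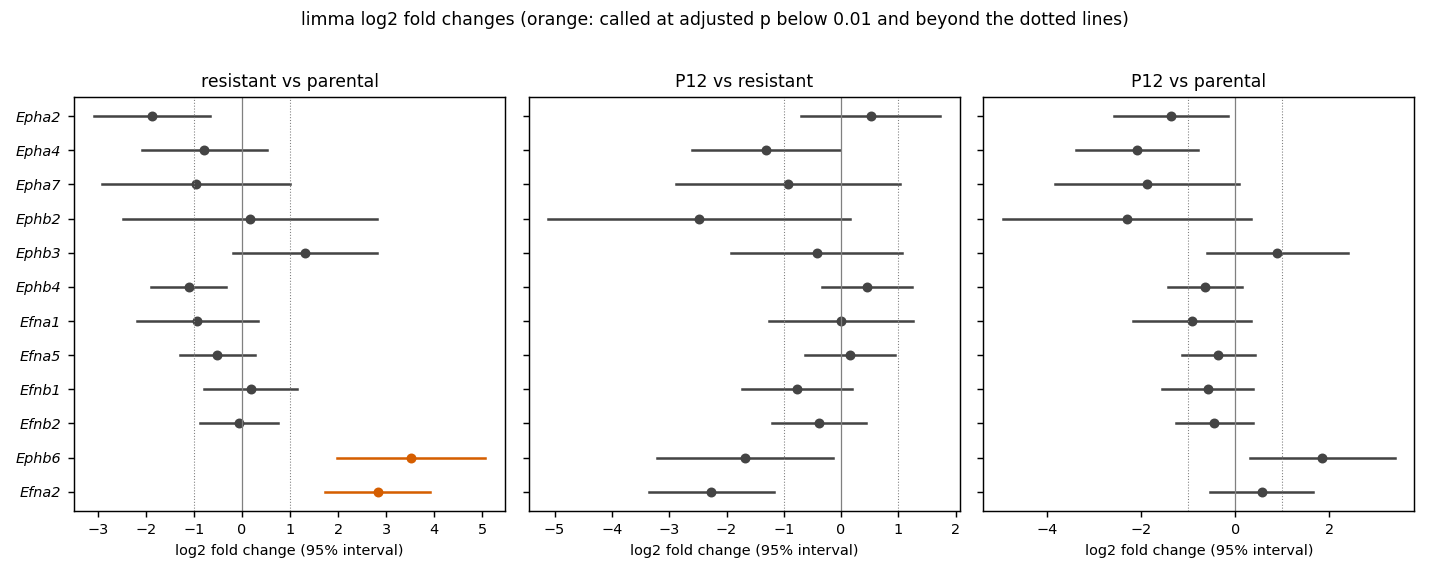
Log2 fold changes from limma (points) with 95% intervals (bars) for the 10 genes and for Ephb6 and Efna2 in 3 comparisons, with dotted lines at -1 and 1 and called genes in orange. Ephb6 at 3.52 and Efna2 at 2.82 are the called genes in resistant against parental cells, and the intervals of Epha2 and Ephb4 lie below 0 there.

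Efna1 (chr3:89271733-89281142, minus strand) is a high-affinity ligand of EphA2. It had 512 to 1801 normalized counts in parental cells (median 891). Resistant samples held 423 in line #3, 1432 in #4, 107 in #6, 462 in #7, 1876 in #9 and 234 in #10. Lines #4 and #9 were higher and the remaining 4 lower than their parental samples. Efna1 had a log2 fold change of -0.93 (SE 0.60, limma adjusted p = 0.327). P12 held 168 to 945 (median 574), with log2 fold changes of -0.00 (SE 0.60, limma adjusted p = 0.999) against resistant and -0.93 (SE 0.60, limma adjusted p = 0.468) against parental cells.

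Efna5 (chr17:62604184-62881317, minus strand), a guidance cue for axons, was nearly level among parental lines at 1435 to 2075 normalized counts (median 1859). In resistant cells it spread to 2478 in line #3, 2806 in #4, 1511 in #6, 989 in #7, 535 in #9 and 740 in #10. The highest parental count was 1.45 times the lowest, compared with 5.24 times in resistant cells. Its log2 fold change was -0.51 (SE 0.37, limma adjusted p = 0.390). In P12 it ran from 719 in line #7 to 1852 in #4 (median 1601), at -0.36 against parental (SE 0.37, limma adjusted p = 0.672) and 0.15 against resistant cells (SE 0.37, limma adjusted p = 0.873).

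Efnb2 (chr8:8617434-8661242, minus strand) and Efnb1 (chrX:99136130-99148991, plus strand) are the transmembrane ligands. Efnb2, which meets EphB4 in vessels, had 2695 to 6778 normalized counts in parental (median 5966) and 2372 to 7917 in resistant cells (median 5417), with 3 lines higher and 3 lower. Its log2 fold change of -0.07 had a 95% interval of -0.88 to 0.75 (SE 0.39, limma adjusted p = 0.937). P12 held 1835 to 8152 (median 3365), at -0.39 (SE 0.39, limma adjusted p = 0.652) against resistant and -0.45 (SE 0.39, limma adjusted p = 0.606) against parental cells. In P5 it was at 2531 in line #3, 7515 in #7 and 2201 in #9, below the resistant sample in 3 of 3 lines.

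Efnb1, needed for boundaries in the developing face, was at 1681 normalized counts in parental line #3, 2676 in #4, 1954 in #6, 1686 in #7, 987 in #9 and 1195 in #10. On the drug it was at 2919 in line #3, 4345 in #4, 1564 in #6, 401 in #7, 2594 in #9 and 1769 in #10. It was higher in 4 of 6 lines, and lines #6 and #7 were lower. Efnb1 had a log2 fold change of 0.18 (SE 0.46, 95% interval -0.79 to 1.14, limma adjusted p = 0.841). P12 was below resistant in 5 of 6 lines at 613 to 2012 (median 1055), with log2 fold changes of -0.77 (SE 0.46, limma adjusted p = 0.389) against resistant and -0.59 (SE 0.46, limma adjusted p = 0.562) against parental cells.

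**Figure D3:**
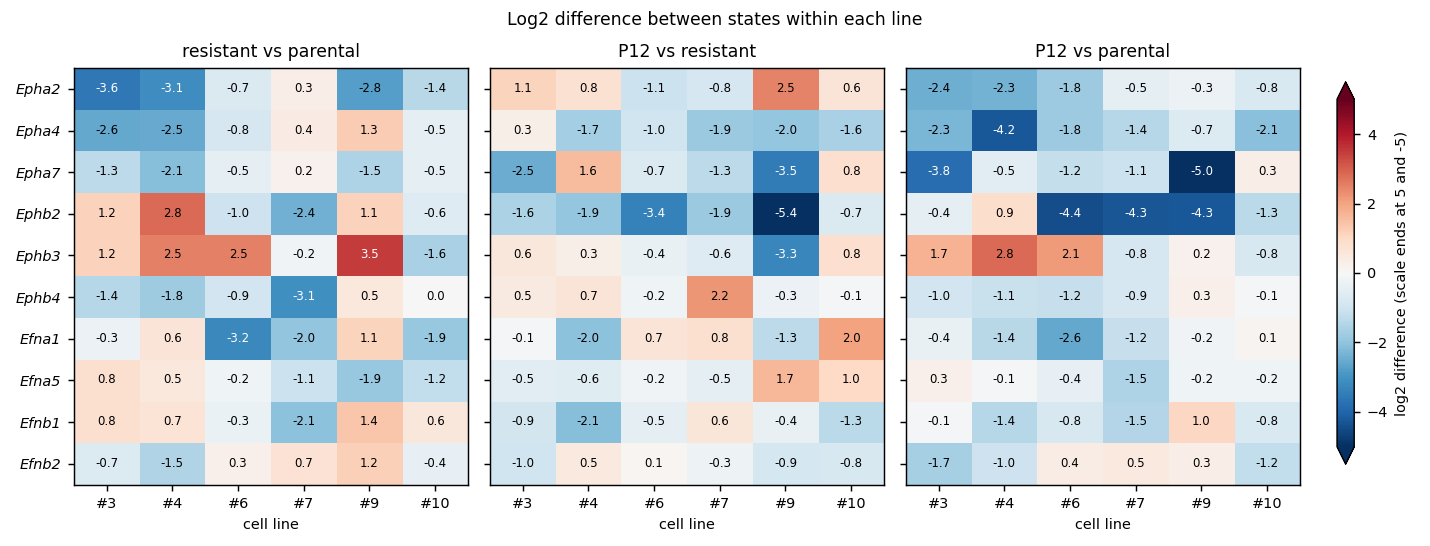
Log2 difference between states for each of the 10 genes (rows) in each cell line (columns), in resistant minus parental, P12 minus resistant and P12 minus parental samples, with blue for lower and red for higher values and the colour scale ending at -5 and 5. In resistant minus parental, 0 of 10 rows have 1 colour throughout, whereas Epha2 and Epha4 are blue in all 6 lines in P12 minus parental.

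For the 3 lines sampled as P5, 0 of the 10 genes were called against resistant cells (0.378% of all tested genes were) and 0 against parental cells (0.0259% were). At an unadjusted p below 0.05 in limma there were 1 of 10 (Epha7) against resistant and 2 of 10 (Epha7 and Epha4) against parental cells, compared with 2976 and 2003 of 19300 tested genes. Between P12 and P5, 0 of the 10 genes were called by limma and 0 had an unadjusted p below 0.05, against 0% of all genes called and 130 of 19300 with an unadjusted p below 0.05. Lower in P5 than in the parental sample in 3 of 3 lines were 4 of 10 (Epha2, Epha4, Epha7 and Efna1), against 14% of all genes, and lower than in the resistant sample were 3 of 10 (Epha7, Ephb2 and Efnb2), against 14.2%. With 3 P5 samples these comparisons are the least precise. Their log2 fold changes also set 3 lines against 6 without pairing, so the groups differ in their lines as well as in state.

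The other 12 Eph and ephrin genes of the mouse were then counted, of which 10 passed the filter and Epha10 and Ephb1 did not. Between resistant and parental cells 2 of the 10 were called, Ephb6 and Efna2, both higher in resistant cells, and 2.57% of all tested genes were called higher. In P12 against resistant, P12 against parental, P5 against resistant, P5 against parental and P12 against P5, 0 were called. Efna4 and Efnb3 were present at 83.9 to 1226 and 65.3 to 359 normalized counts, and Epha1, Epha5, Epha6, Epha8 and Efna3 did not exceed 315 in any sample. Epha3, singled out after its values were seen, was at 3784 in resistant line #3 and at 0 to 175 in all other samples.

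Ephb6 is an Eph receptor whose kinase domain is inactive, so that it signals through partners. Its parental counts were 38.5 in line #3, 217 in #4, 228 in #6, 191 in #7, 286 in #9 and 83.2 in #10. In resistant cells they were 1662 in line #3, 5482 in #4, 2794 in #6, 646 in #7, 4667 in #9 and 274 in #10. Resistant cells were higher in 6 of 6 lines, which held for 8.99% of the tested genes, and the ranges overlapped only through resistant #10. Ephb6 rose by a log2 fold change of 3.52 (SE 0.74, 95% interval 1.98 to 5.06, limma adjusted p = 0.00352). Leaving out line #3, #4, #6 or #9 raised the limma adjusted p to 0.0294, 0.0148, 0.0171 or 0.012, above the threshold. Without drug it was at 118 to 1723 in P12 (median 435), lower than on the drug in 6 of 6 lines (log2 fold change -1.68, SE 0.74, limma adjusted p = 0.207) and higher than before treatment in 6 of 6, as were 6.46% of the tested genes (1.85, SE 0.74, limma adjusted p = 0.235). In P5 Ephb6 was at 300 in line #3, 761 in #7 and 376 in #9, lower than on the drug in #3 and #9 but higher in #7.

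Efna2, a lipid-anchored ligand of EphA receptors, was at 30.2 to 112 normalized counts in parental cells (median 90.2). On the drug it was at 1053 in line #3, 814 in #4, 943 in #6, 315 in #7, 362 in #9 and 334 in #10. Every resistant sample exceeded every parental sample, which held for 2.83% of the tested genes. Efna2 rose by a log2 fold change of 2.82 (SE 0.53, 95% interval 1.72 to 3.92, limma adjusted p = 0.00154). Leaving out line #3, #4 or #6 raised the limma adjusted p to 0.0174, 0.0103 or 0.0103. In P12 it was at 182 in line #3, 177 in #4, 260 in #6, 28.7 in #7, 122 in #9 and 81.3 in #10, below every resistant sample, as were 1.06% of the tested genes. This log2 fold change was -2.26 (SE 0.53), with a limma adjusted p of 0.0134, and of 0.00398, a call, with the line as a block, which called 2% of all genes lower. P5 values of 131 in #3, 34.1 in #7 and 177 in #9 also lay below every resistant sample, as held for 2.35% of the tested genes. Against resistant cells the log2 fold change of P5 was -2.58 (SE 0.64, limma adjusted p = 0.0398), and that of P12 against parental cells was 0.56 (SE 0.53, limma adjusted p = 0.641).

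**Figure D4:**
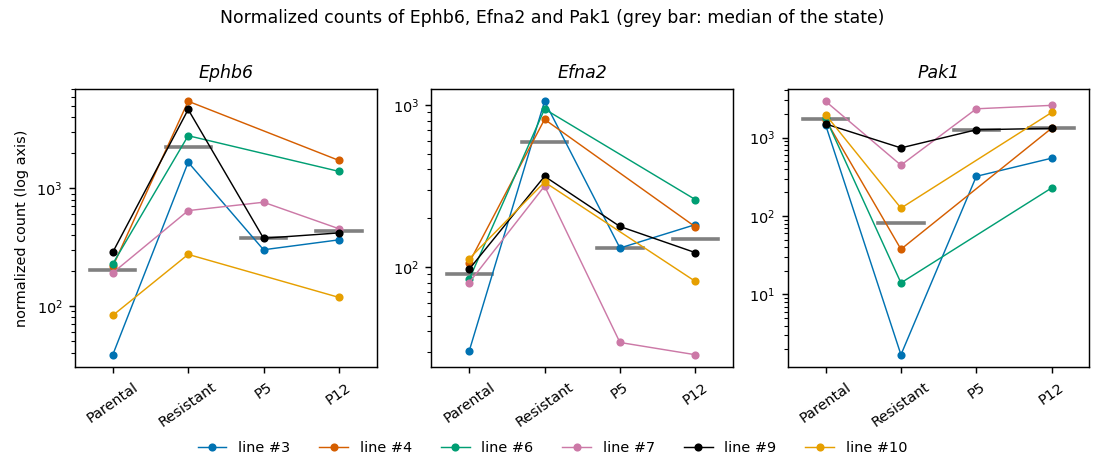
Normalized counts (log axis) of Ephb6, Efna2 and Pak1 in the 4 states, 1 point per sample, with lines joining samples of the same cell line and grey bars at the median of the state. The median of Ephb6 is 204 in parental, 2228 in resistant and 435 in P12 cells, that of Efna2 is 90.2, 588 and 150, and that of Pak1 is 1739, 81.8 and 1316.

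A list of 37 genes that act with Eph receptors and ephrins was also counted (proteases, adaptors, Src and Abl kinases, exchange factors, small GTPases and their effectors), and all 37 were tested. Between resistant and parental cells 0 were called higher and 1 lower, Pak1, against 2.57% higher and 2.73% lower among all tested genes. The list had a median log2 fold change of -0.28. With the line as a block 1 was called higher (Fyn) and 3 lower (Pak1, Grb7 and Ngef), against 4.85% and 5.6% of all genes. In the other 5 comparisons 0 were called. With the block, 2 of 37 (Pak1 and Ngef) were called higher in P12 than in resistant cells, against 2.52% of all genes.

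Pak1, a kinase that acts downstream of Rac and Cdc42, was at 1454 to 2909 normalized counts in parental cells (median 1739). In resistant cells it was at 1.70 in line #3, 37.7 in #4, 14.0 in #6, 445 in #7, 739 in #9 and 126 in #10, with every value below every parental sample, as held for 3.16% of the tested genes. Pak1 fell by 4.85 on the log2 scale (SE 1.02, 95% interval -6.98 to -2.71, limma adjusted p = 0.00366). The value of line #3 lay below that of 3 reads, and with a pseudocount of 8 the log2 fold change was -4.40. Leaving out line #3, #4, #6 or #10 raised the limma adjusted p to 0.0127, 0.0229, 0.0219 or 0.0151. In P12 it was at 228 to 2579 (median 1316) and higher than on the drug in 6 of 6 lines, as were 7.77% of the tested genes (log2 fold change 4.02, SE 1.02, limma adjusted p = 0.0225; with the line as a block 0.00341).

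Ngef (ephexin-1), an exchange factor that binds EphA4, was at 232 to 856 normalized counts in parental and 0 to 439 in resistant cells, lower in 6 of 6 lines (log2 fold change -4.22, SE 1.17, limma adjusted p = 0.0197; with the line as a block 0.00143). P12 was above resistant by 3.74 (SE 1.17, limma adjusted p = 0.0633; with the line as a block 0.00616), in 5 of 6 lines. Grb7, an adaptor of receptor tyrosine kinases, was at 2466 to 4408 in 5 parental lines and at 17.8 in #9, and at 0 to 1019 in resistant cells. It was lower in 6 of 6 lines (log2 fold change -4.42, SE 2.29, limma adjusted p = 0.208; with the line as a block 0.00909), and its P12 values split into 2679 and 3088 in #10 and #7 and at most 44.9 in the remaining lines. Fyn, a Src family kinase named here after its values were seen, was higher in resistant cells in 6 of 6 lines (log2 fold change 2.03, SE 0.50, limma adjusted p = 0.0107; with the line as a block 0.00243).

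To compare levels between genes, normalized counts were divided by exonic length in kilobases. Per kilobase, Epha2 ranked above the other 21 Eph and ephrin genes by its median in every state, at 5141 in parental, 1500 in resistant, 2048 in P5 and 1609 in P12 cells. In parental cells it exceeded Ephb4, ranked next at 1287, in 6 of 6 lines without overlap of their ranges, and Ephb4, Efnb2 (1245) and Epha4 (884) overlapped their neighbours. In resistant cells Efnb2 came next at 1130, below Epha2 in 4 of 6 lines, and the ranges of all neighbours in the order overlapped. Among the ephrins Efnb2 had the highest median in every state, followed in resistant cells by Efnb1 at 669 per kilobase.

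As a share of all Eph receptor counts per kilobase, Epha2 made up 59.0% to 72.7% in parental cells (median 66.2%). In resistant cells the share was 18.4% in line #3, 23.4% in #4, 52.4% in #6, 78.6% in #7, 5.48% in #9 and 49.1% in #10. The leading receptor per kilobase differed between resistant lines, with Ephb6 at 40.7% in #4, Ephb3 at 39.2% in #9 and Epha3 at 24.0% in #3. In P12 the share of Epha2 was 41.2% to 70.8% (median 48.6%), and it led in 6 of 6 lines. Summed over all 14 receptors, the level per kilobase had a median of 7496 in parental, 4981 in resistant, 3869 in P5 and 3407 in P12 cells. The P5 median rests on lines #3, #7 and #9. The receptor sum was higher in resistant than in parental cells in #7 (7263 against 7076) and #9 (5823 against 3699) and lower in the other lines. P12 exceeded resistant cells only in #10 (4968 against 4412). Summed over the 8 ephrins, the median level per kilobase was 3331, 3102, 2485 and 2316 in the same order of states. Efna2 made up 0.537% to 1.96% of the ephrin sum in parental and 4.03% to 15.7% in resistant cells.

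**Figure D5:**
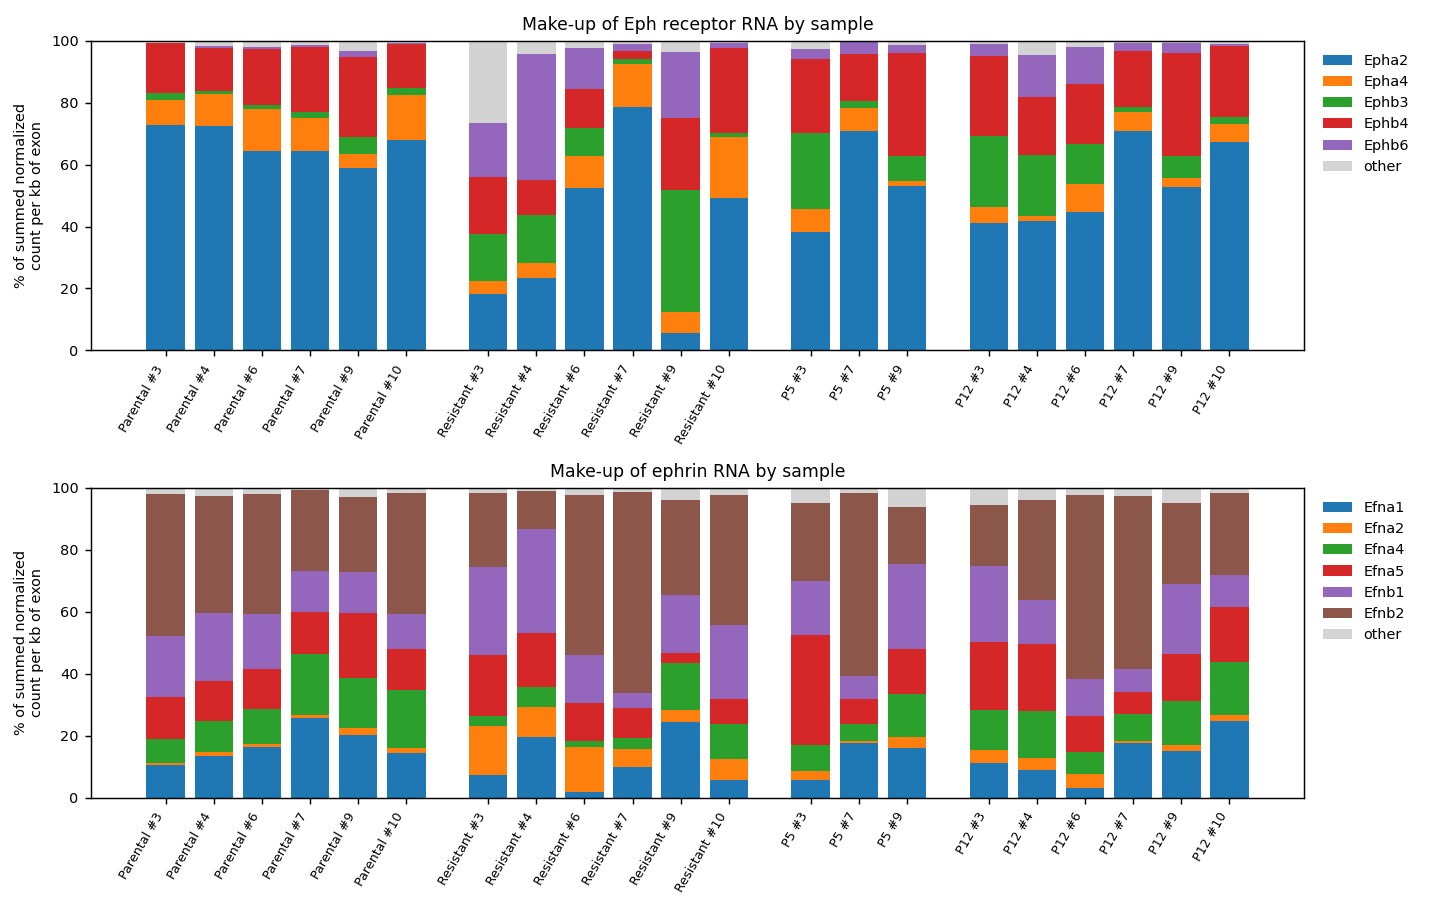
Share of each gene in the summed normalized counts per kilobase of exon of all Eph receptors (top) and all ephrins (bottom), in percent, with 1 bar per sample grouped by state and genes with small shares drawn together as other. Epha2 holds 59.0% to 72.7% of the receptor sum in the parental samples and 5.48% to 78.6% in the resistant samples.

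Shares of the variance were taken on log2 values of the parental, resistant and P12 samples, with P5 left out. The cell line accounted for a median of 38.6% and the state for 17.5% across the 10 genes, compared with medians of 35.8% and 19.8% over all tested genes. The rest, explained by neither, had a median of 43.5% across the 10 genes and 36.6% over all tested genes. For 7 of the 10 genes the line had a larger share than the state. The exceptions were Epha2 (39.3% state, 31.7% line), Epha4 (41.4% and 35.1%) and Ephb4 (34.1% and 21.6%). Shares were not adjusted for the number of levels, which is larger for lines than for states and raises the share of the line. Ephb2 (58.0%) and Epha7 (56.7%) had the largest shares for the line. Outside the 10 genes, the state accounted for 69% in Efna2 and 55.2% in Ephb6.

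Over all 21 samples, P5 included, which share lines and states, the closest pairs among the 10 genes were Epha4 with Efnb2 (Pearson r of log2 values 0.71), Ephb2 with Efnb1 (0.65) and Epha2 with Epha4 (0.62). Epha2 and Ephb3 had the most opposed course, with r = -0.79. Within the 10 genes, Epha2 and Efna1 were the receptor and the ligand with the smallest p between resistant and parental cells, and among all tested genes those most like Epha2 were Mtmr10 (r = 0.92), Klf5 (0.91) and Pwwp2b (0.90). Among the genes most like Efna1 were Blcap (0.82) and Lgalsl (0.80). These values describe 21 samples that are not independent and carry no test.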

How the data were processed

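RNA of 21 samples was sequenced from poly(A)-selected, stranded libraries. The deposited values are signal values: after adapter trimming with Skewer the authors estimated transcript counts with Salmon 0.12 (build mm10 in the submitters' processing notes), passed them to TXImport for gene sums and scaled these with DESeq2 1.18. Estimated counts were thereby scaled between samples but not for gene length. Whole reads could not be recovered (57.4% to 73.9% of low values lay within 0.05 of a multiple of a step), so count tests were not run and read numbers are estimates. The authors name different sequencer models, but the sequencer of each sample was not given in the sources used here. No within-batch values were therefore computed, and whether the model differed between states is not known.

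A pseudocount of 1 was added before log2 values were taken, and the 19300 genes with at least 10 normalized counts in at least 3 samples were tested with limma 3.58.1 (R 4.3.3, trend) in 1 fit of the 4 states without covariates, with Benjamini-Hochberg adjustment over all tested genes. Genes were called at an adjusted p under 0.01 with an absolute log2 fold change over 1. As every line gave 1 sample per state, p-values measure the spread between lines. Numbers in the sample titles are those of the cell line, so samples are paired by line. Deviations from the state mean correlated at a mean r of 0.241 (parental and resistant), 0.457 (resistant and P12) and 0.316 (parental and P12) within a line, and at -0.0462, -0.0903 and -0.0645 between lines. Subtracting the state mean makes the values between lines negative where those within a line are positive. The values between lines are therefore not a separate observation. Comparisons that share a state share its samples.

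The 10 genes and all gene lists were chosen with earlier results of these data known, and the lists were recalled from general knowledge. Named genes are the 10, other family members that were called, and the called or, if fewer than 3, the 3 most changed genes of the list of 37. Alternatives were pseudocounts of 0.5 and 8, no filter, only genes with a mean of 100 or more, upper-quartile rescaling, the line as a block, an adjusted p below 0.05, and each line left out. The fit was tested on simulated data. Another allele shared by all samples and 1 gene named by these rules are not reported here. Promoter sequences came from RefSeq (GRCm38.p6), gene positions and exonic lengths from GENCODE M21, and Python 3.11.15 with pandas 2.3.3 and matplotlib 3.10.9 was used for the rest.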

Additional observations from a re-analysis of the deposited data

Results flagged for a closer look

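Dixon's criterion was applied among the 10 genes to 60 sets of 6 samples or 6 line differences. In 4 sets a sample lay far from the others. Chance alone gives about 1 in 20, and 4 of 60 is near that rate. The sets share samples, and both Efna5 entries below rest on the same P12 sample. Epha4 was at 1055 normalized counts in parental line #9, against a parental median of 5595. Ephb3 was lower in P12 than in resistant cells by 3.26 on the log2 scale in line #9 (log2 difference -3.26), against a median of -0.04. Efna5 was at 719 normalized counts in P12 of line #7, against a P12 median of 1601. In the same line Efna5 differed between P12 and parental cells by -1.53 on the log2 scale, against a median of -0.21. Line #9 was also the parental line with the lowest ductal marker sum, whose part in these values was not tested.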

How the results depend on the processing

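The count of called genes among the 10 was 0 in 76 of 78 counts over 6 comparisons and 13 alternatives. The exceptions were resistant against parental cells, with 1 (Epha2) when the cell line was fitted as a block that uses the pairing by line, and 1 (Epha2) at an adjusted p below 0.05. The block changed the call of Efna2 (P12 against resistant), Grb7 and Fyn (resistant against parental), Ngef (both) and Pak1 (P12 against resistant), as given with each gene. Of 650 gene-level values under alternatives, 16 turned direction. Leaving out 1 line gave ranges on the log2 scale, between resistant and parental cells, of -0.36 to 0.69 for Ephb2, -0.066 to 0.63 for Efnb1 and -0.32 to 0.22 for Efnb2. Between P12 and resistant cells the ranges were -0.68 to 0.14 for Ephb3, -0.40 to 0.41 for Efna1, -0.15 to 0.31 for Efna5 and -0.59 to 0.61 for Grb7. Rescaling to the upper quartile turned Efna1 to 0.091 in P12 against resistant cells and moved the median of all genes there from 0.02 to 0.11, and the cause was not tested. In these 7 results the direction is not settled by 6 lines. Depth limits Ephb2, Epha7, Pak1, Grb7 and Ngef where a sample held only a few reads.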
